A study of Capra hircus with 6 samples.

Results

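The transcripts examined here are the shortest of the long noncoding RNAs (lncRNAs) of the goat hypothalamus, close to the length of 200 nt at which the class is set apart from small RNAs. There were 437 such short lncRNAs, 14.8% of the 2943 lncRNAs in the deposited table. A short lncRNA was taken as a transcript with a deposited length of 200 to 300 nt whose locus had no other transcript in the lncRNA table. Of 490 lncRNAs in this length range, 53 were left out because their locus held several transcripts. The shortest had 200 nt, the median was 256 nt and the longest had 299 nt, and the deposited length equalled the length of the deposited sequence for all 2943 lncRNAs.

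RNA from the hypothalamus of 3 pubertal and 3 prepubertal female Anhuai goats was sequenced with 1 library per goat. The libraries were rRNA-depleted, strand-specific and paired-end. The pubertal goats were 4.5 to 5 months old and in the late follicular phase, and the prepubertal goats were 2.5 to 3 months old and housed under the same conditions. Stage therefore goes together with age and body size in this design, which cannot be told apart.

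LncRNAs can act near their own locus, where they can change the transcription of neighbouring genes, or at distant loci. The hypothalamus starts puberty through neurons that release gonadotropin-releasing hormone. FPKM, the unit of the deposited values, is the number of sequenced fragments of a transcript scaled by its length and by the mapped fragments of the library. In paired-end RNA-seq a short transcript has few positions in which a whole fragment fits, and its FPKM then rests on a small effective length.

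The sequences below belong to the short lncRNAs on which the results turn. The first 3 had the most fragments. They are printed 5′ to 3′ as deposited in lower case, and a capital N marks an undetermined base.
XLOC_2123676: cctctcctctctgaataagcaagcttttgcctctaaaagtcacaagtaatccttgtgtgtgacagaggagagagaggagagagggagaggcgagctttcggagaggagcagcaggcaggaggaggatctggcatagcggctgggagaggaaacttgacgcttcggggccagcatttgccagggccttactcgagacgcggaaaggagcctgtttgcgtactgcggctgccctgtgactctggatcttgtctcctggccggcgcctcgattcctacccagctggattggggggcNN
XLOC_1471485: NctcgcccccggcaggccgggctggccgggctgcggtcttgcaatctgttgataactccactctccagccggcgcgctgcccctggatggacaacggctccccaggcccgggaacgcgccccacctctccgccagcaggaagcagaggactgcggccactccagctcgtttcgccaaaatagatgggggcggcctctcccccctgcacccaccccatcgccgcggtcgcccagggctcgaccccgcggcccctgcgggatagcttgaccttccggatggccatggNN
XLOC_2251632: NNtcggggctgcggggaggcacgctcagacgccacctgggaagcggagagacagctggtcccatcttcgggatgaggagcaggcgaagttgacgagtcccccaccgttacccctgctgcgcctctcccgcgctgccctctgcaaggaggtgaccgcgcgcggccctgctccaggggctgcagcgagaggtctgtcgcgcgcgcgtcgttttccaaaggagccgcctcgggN

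The next 4 were above 0 in every library of one stage and at 0 in every library of the other. The first pair was above 0 in the pubertal goats and the second pair in the prepubertal goats.
XLOC_382871: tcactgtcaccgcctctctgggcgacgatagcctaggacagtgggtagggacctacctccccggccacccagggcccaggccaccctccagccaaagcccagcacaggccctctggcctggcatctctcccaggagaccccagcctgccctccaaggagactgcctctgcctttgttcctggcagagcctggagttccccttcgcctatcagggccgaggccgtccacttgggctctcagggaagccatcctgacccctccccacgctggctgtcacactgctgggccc
XLOC_911024: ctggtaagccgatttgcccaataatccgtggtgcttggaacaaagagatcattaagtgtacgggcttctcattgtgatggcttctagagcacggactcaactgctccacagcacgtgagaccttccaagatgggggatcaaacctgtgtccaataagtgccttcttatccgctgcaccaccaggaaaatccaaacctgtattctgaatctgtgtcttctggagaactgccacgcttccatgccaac
XLOC_1297359: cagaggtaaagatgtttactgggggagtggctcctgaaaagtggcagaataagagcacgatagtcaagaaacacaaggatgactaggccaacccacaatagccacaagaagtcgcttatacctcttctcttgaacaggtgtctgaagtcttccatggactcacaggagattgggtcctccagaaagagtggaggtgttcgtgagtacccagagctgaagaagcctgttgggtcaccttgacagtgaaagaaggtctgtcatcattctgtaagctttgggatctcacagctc
XLOC_2117213: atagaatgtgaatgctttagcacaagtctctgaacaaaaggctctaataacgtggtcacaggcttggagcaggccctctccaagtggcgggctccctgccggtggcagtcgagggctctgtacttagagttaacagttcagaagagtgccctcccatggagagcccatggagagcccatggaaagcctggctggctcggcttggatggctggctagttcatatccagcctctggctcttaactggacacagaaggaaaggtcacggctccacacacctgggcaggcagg

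The last one was singled out in the study as specific to the pubertal goats.
XLOC_2409732: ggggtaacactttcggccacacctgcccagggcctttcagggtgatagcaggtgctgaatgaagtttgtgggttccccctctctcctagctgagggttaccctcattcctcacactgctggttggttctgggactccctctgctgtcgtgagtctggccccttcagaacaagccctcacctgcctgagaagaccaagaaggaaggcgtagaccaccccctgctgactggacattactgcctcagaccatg

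The FPKM values of the short lncRNAs fell on steps. In each library, a single smooth curve over length gave the FPKM of 1 fragment, and the other values were whole multiples of it. Of the 908 values of up to 10 fragments, 905 (99.7%) lay within 1% of a whole number of fragments, and the count was again 905 of 908 when the length of the transcript was held out of the fit of the curve. The 3 exceptions all belonged to XLOC_916868 of 200 nt. These whole numbers are called recovered fragments in the following, and they give the depth behind each value.

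The value of 1 fragment depended strongly on length. It lay between 9.27 and 25.3 FPKM in the 6 libraries for a transcript of 200 nt, between 3.13 and 7.11 FPKM at 225 nt, between 1.5 and 2.90 FPKM at 250 nt and between 0.900 and 1.52 FPKM at 275 nt. At 299 nt it lay between 0.626 and 0.957 FPKM. The same fragment was thus worth 14.8 to 26.5 times more FPKM at 200 nt than at 299 nt. For comparison, 1 fragment of a lncRNA of 600 nt was worth 0.119 to 0.161 FPKM. A count of 0 allows up to 3 fragments, which is a level of up to 27.8 to 76.0 FPKM at 200 nt and of up to 1.88 to 2.87 FPKM at 299 nt. A value of 0 was accordingly not read as absence of expression. Such limits cover counting error only, since fragments copied by PCR are not independent molecules.

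**Figure D1:**
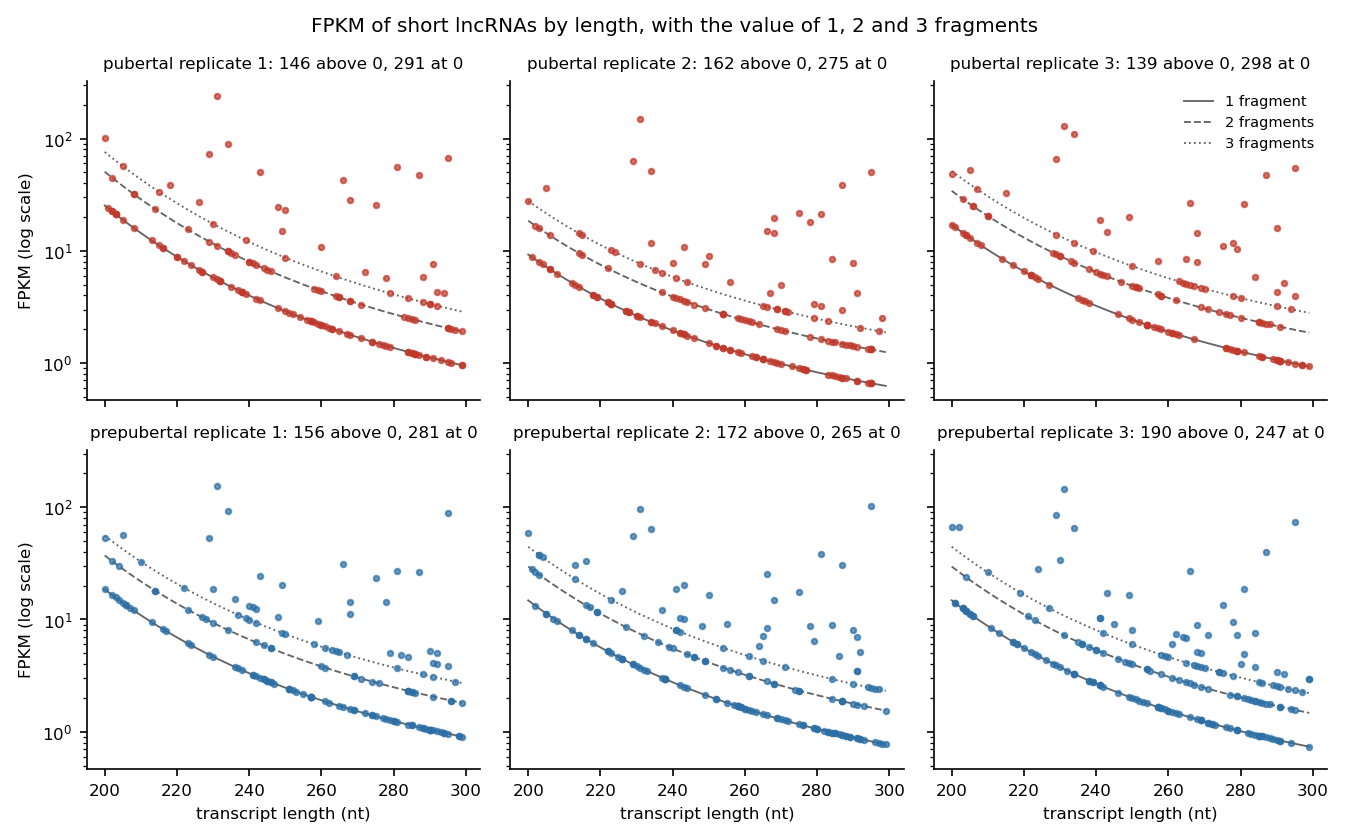
FPKM of each short lncRNA above 0 (vertical axis, log scale) against its length in nt (horizontal axis), with 1 panel per library; the solid, dashed and dotted lines are the FPKM of 1, 2 and 3 recovered fragments, and the title of each panel gives how many of 437 were above 0 and at 0. Most points lie on the lines, which fall from 9.27 to 25.3 FPKM per fragment at 200 nt to 0.626 to 0.957 FPKM at 299 nt.

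Most values rested on no fragment or on very few. Of 2622 values (437 short lncRNAs in 6 libraries), 1657 (63.2%) were at 0 and 965 were above 0. Among the values above 0, 460 (47.7%) were 1 fragment, 221 (22.9%) were 2 fragments and 112 (11.6%) were 3 fragments. There were 92 values (9.53%) of 6 or more fragments, and the highest was 126 fragments. The 437 short lncRNAs together held 540, 654 and 500 fragments in the pubertal libraries and 548, 645 and 668 in the prepubertal libraries. These totals overlapped between the stages. They are not the sequencing depth of the libraries.

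These fragments were concentrated in a small number of transcripts. The 10 short lncRNAs with the most fragments held 48.0% of the 3555 fragments of the 6 libraries, and between 43.3% and 52.0% in single libraries. The 28 that were above 0 in all 6 libraries held 61.1%. The median short lncRNA had 3 fragments over the 6 libraries, 93 had a single one, and 271 (62.0%) had 3 or fewer. Only 21 had 20 or more. A mean of 1 FPKM or more, often read as clear expression, was reached by 219 short lncRNAs, of which 81 had no more than 3 fragments in all. Those with a single fragment had mean FPKM values from 0.110 to 2.62.

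In the pubertal libraries 291, 275 and 298 of the 437 short lncRNAs were at 0, and in the prepubertal libraries 281, 265 and 247. As shares these were 66.6%, 62.9% and 68.2% against 64.3%, 60.6% and 56.5%. The pubertal share was higher on average, but the stages overlapped. Over the 6 libraries 63.2% ± 4.22 (SD, n = 6) of short lncRNAs were at 0, compared with 38.9% ± 3.13 (SD, n = 6) of the 739 lncRNAs of more than 300 and up to 600 nt and 3.62% ± 0.515 (SD, n = 6) of the 1049 longer ones, all from loci with a single transcript. The difference within a library was 24.2 percentage points ± 2.24 (SD) from the class of up to 600 nt and 59.6 points ± 4.08 from the class of over 600 nt. It had the same sign in 6 of 6 libraries in both cases. An exact two-sided sign-flip permutation test over the 6 libraries gave p = 0.03125 for each, the smallest that 6 libraries can give. Benjamini-Hochberg adjustment over both left p at 0.03125 for each. The classes were made by length, which also sets the positions in which a fragment fits, so the test cannot tell these apart.

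The values above 0 went the other way. Their median in a library was 3.71 FPKM ± 0.741 (SD, n = 6) for the short lncRNAs, 0.768 FPKM ± 0.0728 for those of up to 600 nt and 0.681 FPKM ± 0.0677 for the longer ones. The median of the short lncRNAs was thus 4.77-fold and 5.38-fold higher (mean ratio of medians, averaged on the log10 scale), in 6 of 6 libraries. This is a description and no test is given, because a value above 0 is at least 1 fragment, and 1 fragment of a short lncRNA is by the unit alone worth 0.626 to 25.3 FPKM. The order was reversed in fragments. The median value above 0 was 1 to 2 fragments in the short lncRNAs and 3 fragments in the class of up to 600 nt in each library. A single fragment made up 43.9% to 51.4% of the values above 0 in the short class and 23.7% to 30.05% in the other.

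**Figure D2:**
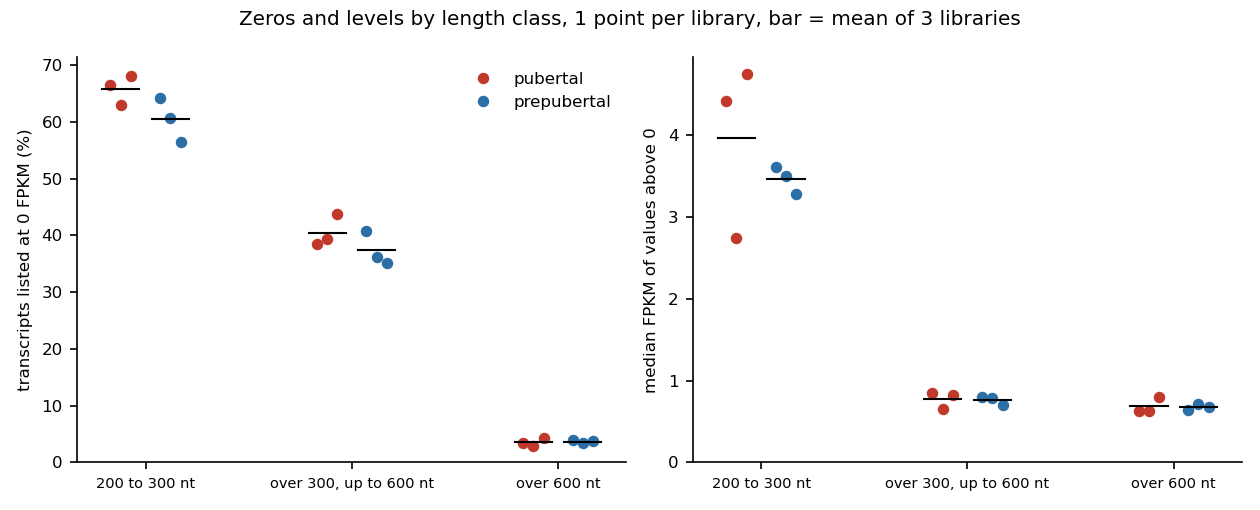
Share of transcripts listed at 0 FPKM in percent (left) and median FPKM of the values above 0 (right) by length class; each point is 1 library, coloured by stage, and the bar is the mean of 3 libraries. The short lncRNAs have the highest share at 0, 63.2% ± 4.22 (SD), and also the highest median above 0, 3.71 FPKM ± 0.741.

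Zeros of the short lncRNAs were found at low and at high mean FPKM. Among lncRNAs with a mean FPKM of 2 to 5, 55.1% of the values of the short lncRNAs were 0, compared with 2.70% in the class of up to 600 nt and 0 in the longer class. At a mean of 5 FPKM or more, 36.6% of the values of 61 short lncRNAs were still 0, and none in either other class. At a mean of 0.1 to 0.5 FPKM the shares were 77.7%, 51.9% and 9.33%. As mean FPKM is made from the same values, these shares are a description. Equal FPKM also stands for fewer fragments in a short lncRNA, so the classes were not matched in depth. A fragment was worth 0.626 to 25.3 FPKM at 200 to 299 nt and 0.119 to 0.161 FPKM at 600 nt.

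Within the short lncRNAs the same trend ran along length. In the bins of 200 to 224, 225 to 249, 250 to 274 and 275 to 300 nt, which held 83, 107, 119 and 128 short lncRNAs, the share of values at 0 was 67.5%, 64.6%, 63.3% and 59.1%. The median of the values above 0 was 12.3, 5.54, 2.44 and 1.68 FPKM in this order. The fragments did not rise steadily with length, with means of 0.548, 1.43, 0.957 and 2.19 per transcript and library. A mean of at least 1 FPKM was reached by 77 of 83 in the shortest bin and by 31 of 128 in the longest, although 1 and 13 of them, respectively, were above 0 in all 6 libraries.

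No short lncRNA had exactly 300 nt, and the values on both sides of the length limit were alike in kind. Of the 5 short lncRNAs of 299 nt, XLOC_368922 had a single fragment, in pubertal goat 1 (0.957 FPKM). XLOC_807894 had 2 fragments in pubertal goat 1 (1.91 FPKM) and 1 fragment in prepubertal goat 2 (0.772 FPKM), and XLOC_932562 had 2 and 4 fragments in prepubertal goats 1 and 3 (1.81 and 2.94 FPKM). All 5 were at 0 in 2 to 5 libraries. Just outside the limit, 5 lncRNAs of 301 nt from single-transcript loci were at 0 in 3 to 5 libraries. Among these, XLOC_319000 had 1 and 2 fragments in pubertal goat 3 and prepubertal goat 1 (0.907 and 1.76 FPKM), XLOC_421861 had 2, 1 and 1 fragments in pubertal goats 1 and 3 and prepubertal goat 1 (1.85, 0.907 and 0.878 FPKM), and XLOC_571208 had a single fragment in prepubertal goat 2 (0.749 FPKM).

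A short lncRNA seen in one goat was seen in another goat of the same stage little more often than any short lncRNA was. Of the short lncRNAs above 0 in one library, 42.2% were above 0 in a second library of the same stage (35.6% to 50.6% over pairs) and 41.0% in a library of the other stage, while 36.8% of all short lncRNAs were above 0 in a library on average. The Spearman correlation of FPKM over the 437 short lncRNAs was 0.151 on average between 2 goats of the same stage (0.109 to 0.196 over 6 pairs) and 0.156 between goats of different stages (0.0734 to 0.260 over 9 pairs). In the class of up to 600 nt these means were 0.292 and 0.303, and in the longer class 0.678 and 0.685. The correlations are across transcripts, which are not independent replicates and share the length that sets the value of a fragment. The lncRNAs were assembled from these same libraries, and no short lncRNA was at 0 in all 6. Transcripts never seen are thus missing, which raises the share of 36.8% and lowers the correlations. In recovered fragments, where the FPKM value of a fragment plays no part, the means for the short lncRNAs were 0.203 and 0.184. Fragments still differed by length, though not steadily, with means of 0.548 per transcript and library at 200 to 224 nt and 2.19 at 275 to 300 nt.

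The 28 short lncRNAs above 0 in all 6 libraries had mean correlations of FPKM of 0.874 within and 0.894 between stages. These values are raised by the choice of transcripts without a 0 and share the length that sets the value of a fragment. For the other 409 the means were -0.04 and -0.03, a value lowered by the choice itself because each of them had to be at 0 in some library. The variance of the recovered fragments within a stage was 2.002 times their mean over all short lncRNAs. Pure counting error gives a ratio of 1 only where libraries are alike in depth and in the value of a fragment. The fragments were not scaled between libraries, and 1 fragment at 200 nt was worth 9.27 to 25.3 FPKM. The ratio therefore also holds these differences and does not measure the spread between goats alone. It was 1.62 for the 410 with up to 15 fragments in all and 2.24 for the 27 with more.

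Few of the short lncRNAs were above 0 in every goat. Counted over the 6 libraries, 155 (35.5%) were above 0 in 1 library, 164 (37.5%) in 2, 56 (12.8%) in 3, 24 (5.49%) in 4, 10 (2.29%) in 5 and 28 (6.41%) in all 6. None was at 0 throughout. In comparison, 19.6% of the lncRNAs of up to 600 nt and 86.2% of the longer ones were above 0 in all 6 libraries.

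Over 50% of the short lncRNAs were above 0 in goats of one stage only. There were 104 (23.8%) above 0 only in pubertal libraries and 132 (30.2%) only in prepubertal libraries, which is 54.0% in all, compared with 19.9% of the class of up to 600 nt and 0.381% of the longer class. These counts were not tested, and the fragments behind them were few. Of the 104 seen only in pubertal goats, 72 were above 0 in a single library, 46 had a single fragment, and 15 had more than 3 fragments. Of the 132 seen only in prepubertal goats, 83 were above 0 in a single library, 47 had a single fragment, and 25 had more than 3. The median was 2 fragments and the maximum 7 in both sets. Both directions had 2 short lncRNAs that were above 0 in all 3 libraries of one stage and in none of the other.

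**Figure D3:**
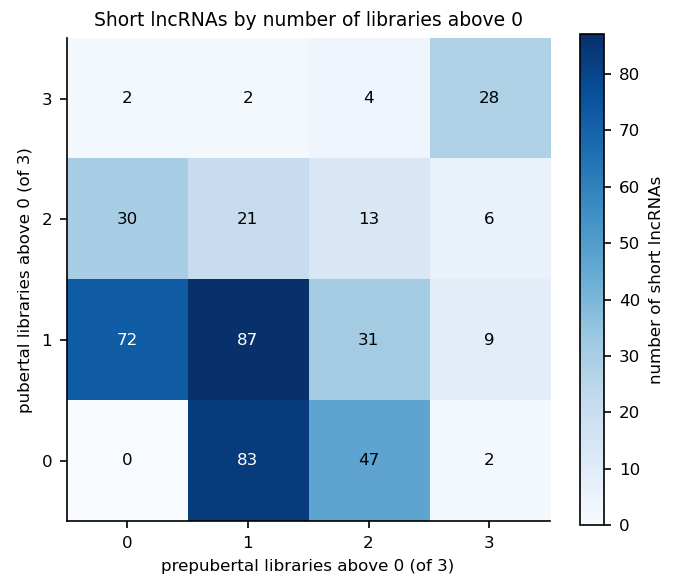
Number of short lncRNAs (printed in each cell and shaded) by the number of pubertal (vertical axis) and prepubertal (horizontal axis) libraries in which they were above 0. The left column and bottom row hold the 104 and 132 seen in one stage only, mostly in a single library, and the upper right corner the 28 seen in all 6.

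The stage comparison used limma on log2(FPKM + 1) for all 2925 lncRNAs with a mean FPKM of at least 0.1, which included all 437 short lncRNAs. The difference given below is pubertal minus prepubertal on that scale, on which changes of low values appear smaller than they are. No short lncRNA reached a Benjamini-Hochberg adjusted p under 0.05, compared with 0.0342% of all lncRNAs tested (1 of 2925). Without pubertal goat 2, pubertal goat 3 or prepubertal goat 1, there were 2, 3 and 7 such short lncRNAs, each with at most 7 fragments and with one stage at 0 throughout. At an unadjusted p under 0.05 there were 25 short lncRNAs (5.72%), compared with 3.52% of all lncRNAs tested. Of these 25, 10 were higher (1.54% of all lncRNAs tested were) and 15 lower (1.98%) in the pubertal goats. After centring of the libraries on their medians there were 16 higher and 7 lower, so that the direction of the balance depended on the scaling. It also depended on single goats, with 19 higher and 7 lower without pubertal goat 3 and 3 higher and 21 lower without prepubertal goat 2.

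These 25 were mostly transcripts with very few fragments. In 22 of them one stage was at 0 throughout, in 18 of them 2 of 3 libraries of the other stage were above 0, and their median was 4 fragments over all libraries. Only 2 of the 25 had more than 10 fragments. Limma was also run on recovered fragments in place of FPKM, an alternative added after the data were seen. They were taken before rounding and scaled between libraries by the FPKM of 1 fragment at 600 nt. This scaling does not remove the library differences in the value of a fragment at shorter lengths. In this alternative, 2 of 437 short lncRNAs had an unadjusted p under 0.05, XLOC_2123676 and XLOC_1459303, both with an adjusted p of 0.807. Over all 1176 lncRNAs of up to 600 nt in that run there were 29.

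The groups of 3 goats did not overlap in 8 short lncRNAs (1.83%), 4 higher and 4 lower, compared with 6.67% of all lncRNAs tested, 2.87% higher and 3.79% lower. With centring on the library median there were 47, of which 42 were higher in pubertal goats. Centring moves the zeros of different libraries apart by construction. The median difference was -0.13 over the short lncRNAs and -0.03 over all lncRNAs tested, and its standard error had a median of 0.61 and 0.27, respectively. An exact permutation test of 3 goats against 3 for a single transcript cannot give p under 0.1.

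Markers of other tissues were measured in the same libraries. Of 5 anterior pituitary markers found among 6, CGA and TSHB, which encode subunits of pituitary glycoprotein hormones, did not overlap between the stages, while LHB, POU1F1 and GH1 did. CGA was at 39.4 to 62.5 FPKM in the pubertal and 2.24 to 18.0 FPKM in the prepubertal goats, and TSHB at 2.33 to 4.04 FPKM and 0 to 1.84 FPKM. The sum of the 5, mostly CGA, was 52.8 to 66.0 and 3.75 to 20.8 FPKM, with GH1 at 0 in 5 of 6 libraries. Choroid plexus markers summed to 4.01 to 314 FPKM and 5.81 to 56.5 FPKM, the highest in pubertal goat 3, and thalamus and cortex markers to 5.15 to 7.29 FPKM in all goats. Of 15 hypothalamic markers 11 were found, and 10 were at 1 FPKM or more in every library, whereas AVP was listed at 0 in all 6. The part of these tissues in the stage differences of the short lncRNAs was not tested.

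The best sampled short lncRNA was XLOC_2123676 (TCONS_04328256, 295 nt), which the study lists with MEF2C, a transcription factor of neurons and muscle. Its level was 67.6, 50.2 and 54.4 FPKM in the pubertal goats and 89.5, 103 and 74.4 FPKM in the prepubertal goats, so that all 3 pubertal goats lay below all 3 prepubertal goats. These values rest on 66, 76 and 55 fragments against 93, 126 and 95. The pubertal mean was 57.4 ± 9.09 FPKM (SD, n = 3), and the prepubertal mean was 89.1 ± 14.5 FPKM (SD, n = 3). The difference was -0.62 with a standard error of 0.20 (limma, unadjusted p = 0.0185 and adjusted p = 0.943). Summed over goats there were 197 fragments (95% exact Poisson interval 170 to 227) against 314 (280 to 351). These intervals are no test of the stages, as they leave out library depth and the spread between goats. Within stages the variance of recovered fragments, not scaled between libraries, was 2.24 times the mean in short lncRNAs with over 15 fragments. MEF2C itself was at 14.7 ± 1.41 FPKM (SD, n = 3) and 15.02 ± 1.01 FPKM (SD, n = 3), which overlapped.

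The second best sampled was XLOC_1471485 (TCONS_03058776, 287 nt), which lies within 10 kb of an adhesion G protein-coupled receptor gene in the neighbour list of the study. It was at 47.5, 38.5 and 47.1 FPKM in the pubertal goats and at 26.4, 30.8 and 40.2 FPKM in the prepubertal goats, on 40, 52 and 42 against 24, 33 and 45 fragments. One prepubertal goat lay above the lowest pubertal goat, and the difference was 0.45 with a standard error of 0.22 (limma, unadjusted p = 0.0786, adjusted p = 0.943). XLOC_2251632 (TCONS_04746813, 231 nt), listed near MAN1A1, an enzyme that trims N-glycans, had the highest mean FPKM of all lncRNAs. It was at 239, 148 and 130 FPKM against 153, 96.5 and 145 FPKM, on 43, 58 and 30 against 34, 26 and 40 fragments. The goat with the highest FPKM, pubertal goat 1, was not the goat with the most fragments, pubertal goat 2. Both stages overlapped (difference 0.37, standard error 0.29, limma unadjusted p = 0.253, adjusted p = 0.943). The difference was 0.11 without pubertal goat 1, 0.16 without prepubertal goat 2 and 0.24 with quantile normalization.

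**Figure D4:**
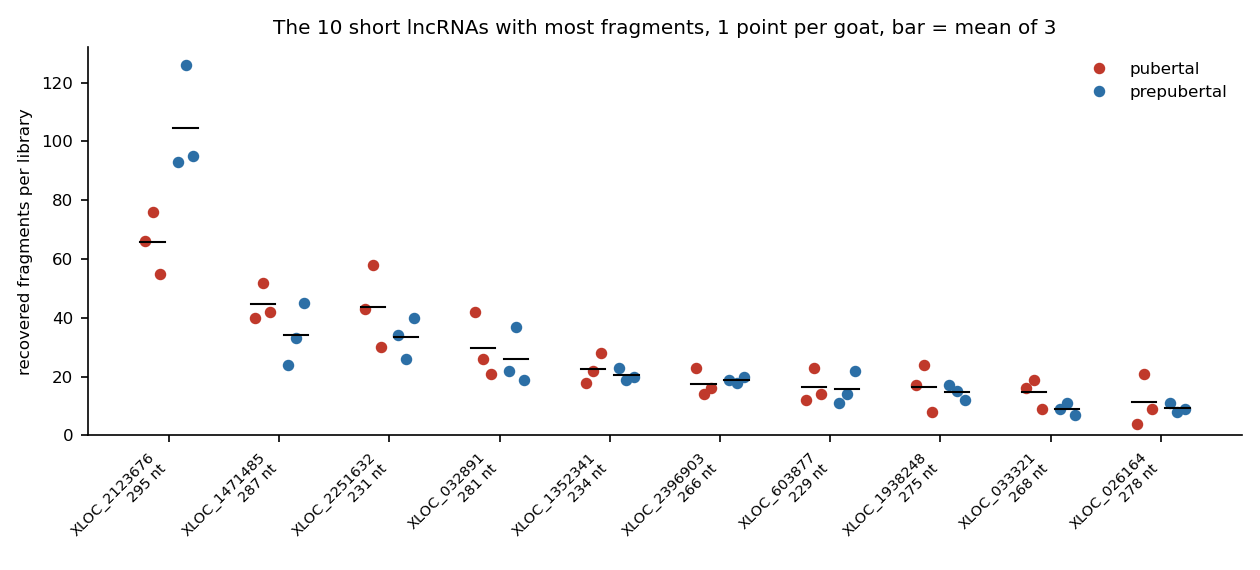
Recovered fragments per library (vertical axis) of the 10 short lncRNAs with the most fragments, named by locus and length; each point is 1 goat, coloured by stage, and the bar is the mean of 3. In XLOC_2123676 the pubertal goats (55 to 76 fragments) lie below the prepubertal goats (93 to 126), and in the others shown the fragments of both stages overlap.

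A further 3 short lncRNAs were among the 5 with the highest mean FPKM. XLOC_1352341 (234 nt) was at 89.4, 51.2 and 110 FPKM in the pubertal and 93.2, 63.6 and 65.3 FPKM in the prepubertal goats, on 18 to 28 fragments per library. XLOC_603877 (229 nt), listed near PRDM14, a regulator of germ cell fate, was at 72.3, 62.8 and 65.1 FPKM against 53.3, 55.8 and 85.8 FPKM, on 11 to 23 fragments. Both overlapped between stages. XLOC_916868 (200 nt) was at 101.3, 27.7 and 48.7 FPKM against 52.8, 59.2 and 67.3 FPKM, which is only about 22 fragments in all. It ranked 5 by mean FPKM and 21 by fragments among the short lncRNAs, and 3 of its values were the only ones checked that were not whole numbers of fragments. Short lncRNAs held 5 of the 6 highest ranks by mean FPKM in the whole lncRNA table.

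The 28 short lncRNAs above 0 in all 6 libraries had a median of 35 fragments in all (7 to 511) and mean levels from 1.21 to 152 FPKM. Their stage differences ran from -0.74 to 0.65, 15 above and 13 below 0, with a median of 0.04. Of the 28, 1 had an unadjusted p under 0.05 in limma, XLOC_2123676, compared with 3.52% of all lncRNAs tested. Stages did not overlap in 2 of the 28, XLOC_2123676 and XLOC_1785823, compared with 6.67% of all lncRNAs tested. The median standard error of the 28 was 0.39, compared with 0.64 in the other 409. XLOC_1785823 (242 nt) was at 7.48, 3.69 and 6.09 FPKM in the pubertal goats, 2 fragments in each, and at 12.5, 10.4 and 7.56 FPKM in the prepubertal goats, on 4, 4 and 3 fragments (difference -0.74, standard error 0.31, limma unadjusted p = 0.0514, adjusted p = 0.943). Among the 5 with the lowest spread within stages was also XLOC_1269624 (271 nt), with 2, 3 and 2 fragments (3.32, 2.90 and 3.002 FPKM) against 2, 3 and 6 fragments (2.98, 3.78 and 7.25 FPKM).

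**Figure D5:**
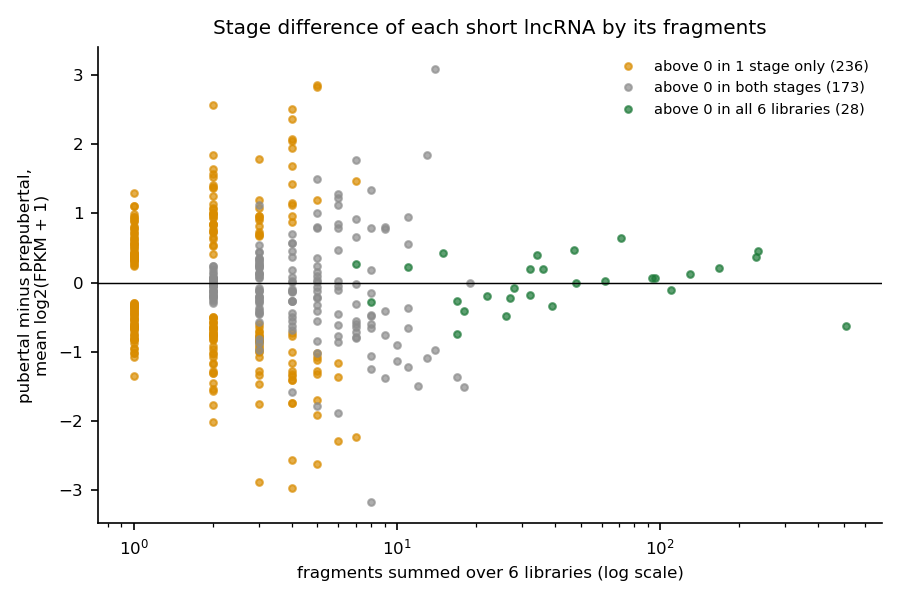
Stage difference of each of the 437 short lncRNAs, the mean log2(FPKM + 1) of pubertal minus prepubertal goats (vertical axis), against its fragments summed over 6 libraries (horizontal axis, log scale); colours separate those above 0 in one stage only (236), those above 0 in both stages but not in all libraries (173) and those above 0 in all 6 (28). Differences beyond 1 in either direction are found only below 20 fragments, while the 28 lie between -0.74 and 0.65.

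There were 4 short lncRNAs above 0 in all goats of one stage and in none of the other, and they were named because of that pattern, so their values are a description. XLOC_382871 (289 nt) was at 1.14, 1.44 and 1.09 FPKM in the pubertal goats on 1, 2 and 1 fragments. XLOC_911024 (246 nt) was at 6.56, 1.66 and 2.71 FPKM on 2, 1 and 1 fragments. In both the sum was 4 fragments (95% exact Poisson interval 1.09 to 10.2). In the other direction, XLOC_1297359 (291 nt) was at 2.05, 1.75 and 0.835 FPKM in the prepubertal goats on 2, 2 and 1 fragments, and XLOC_2117213 (289 nt) was at 1.06, 0.904 and 2.59 FPKM on 1, 1 and 3 fragments. Both had 5 fragments in all (1.62 to 11.7). As no library exceeded the 3 fragments that a count of 0 allows, no fold was computed. In limma the lowest unadjusted p of these 4 was 0.000311, for XLOC_382871, with an adjusted p of 0.455, and the adjusted p of the other 3 lay between 0.756 and 0.82.

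A pair of other short lncRNAs had higher values in all pubertal than in all prepubertal goats. XLOC_1459303 (205 nt) was at 56.7, 36.0 and 52.3 FPKM in the pubertal goats on 3, 5 and 4 fragments, and at 14.1, 11.3 and 0 FPKM in the prepubertal goats on 1, 1 and 0 fragments. It had the largest positive difference among the short lncRNAs, 3.09 with a standard error of 1.02 (limma, unadjusted p = 0.0219, adjusted p = 0.943), on 12 fragments (95% exact Poisson interval 6.20 to 21.0) against 2 (0.242 to 7.22). Its difference was 1.83 without prepubertal goat 3, the library at 0, and 1.65 on log2 of recovered fragments plus 1. Its unadjusted p in limma lay between 0.0642 and 0.0837 when any one pubertal goat was left out. XLOC_251509 (234 nt) was at 9.93, 11.6 and 11.7 FPKM on 2, 5 and 3 fragments, against 8.10, 0 and 3.26 FPKM on 2, 0 and 1 fragments (difference 1.83, standard error 0.76, limma unadjusted p = 0.051, adjusted p = 0.943). Its difference was 0.95 without prepubertal goat 2, the library at 0, 2.55 without prepubertal goat 1, 2.99 with a pseudocount of 0.1 and 1.21 in recovered fragments.

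The study singled out a pair of short lncRNAs as specific to one stage, and the sequence of the first is given above. XLOC_2409732 (250 nt) was at 2.90, 0 and 2.43 FPKM in the pubertal goats and at 0 in all prepubertal goats, and each of its values above 0 was a single fragment. It was 1 of 30 short lncRNAs above 0 in 2 pubertal and in no prepubertal library. XLOC_1498149 (238 nt) was at 2.94 FPKM in prepubertal goat 2, a single fragment, and at 0 in the other 5 goats. It was 1 of 83 short lncRNAs seen in a single prepubertal library only. Neither passed limma (unadjusted p = 0.0507 and 0.27, adjusted p = 0.943 for both), and a count of 0 in the other stage allows up to 3 fragments per library.

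The remaining short lncRNAs that the study names were listed there by coexpression with puberty genes over the same 6 libraries, so that their patterns are not independent of that choice. XLOC_523219 (257 nt), listed with CD38, an enzyme that makes cyclic ADP-ribose, had 1, 0 and 4 fragments in the pubertal and 1, 0 and 0 in the prepubertal goats. XLOC_1178955 (284 nt), listed with MEF2C, had 3, 0 and 0 against 2, 3 and 0 fragments. Neither separated the stages.

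A further 5 were listed with ZNF444, a zinc finger protein, and they shared a single pattern. All 5 were above 0 in pubertal goat 3 and prepubertal goat 1 and at 0 in the other 4 goats. XLOC_1248122 (200 nt) was at 17.1 and 18.6 FPKM in these goats, XLOC_1753539 (207 nt) at 11.8 and 12.7 FPKM, XLOC_1985452 (236 nt) at 3.67 and 3.79 FPKM and XLOC_1371300 (290 nt) at 1.07 and 1.04 FPKM, with 1 fragment in each case. XLOC_1341798 (274 nt) was at 2.83 and 2.80 FPKM with 2 fragments in each. Values between 1.04 and 18.6 FPKM thus rested on 1 or 2 fragments. Of the 437 short lncRNAs, 12 were above 0 in exactly these 2 libraries, compared with 7 to 22 over the 15 possible pairs of libraries.

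The short lncRNAs resembled the other lncRNAs in base composition. Their median GC content was 49.1%, against 48.7% in the class of up to 600 nt and 46.7% in the longer class, and it was 50.4% in the 28 above 0 in all libraries and 54.3% in the 10 with the most fragments. Only 2 ended in an A-rich stretch, with A in at least 8 of the last 10 bases.

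Undetermined bases were found in 5 short lncRNAs, in each case at an end of the sequence. Of these, 4 were among the 10 with the most fragments, namely XLOC_2123676, XLOC_1471485, XLOC_2251632 and XLOC_1938248 (275 nt, 93 fragments, listed near CXXC4, an inhibitor of Wnt signalling), and the other one, XLOC_1346161, had 2 fragments. As shares, 14.3% of the 28 above 0 in all libraries and 0.244% of the other 409 held such bases, a contrast noticed in the data and not tested. For comparison, such bases were found in 8 of the 739 lncRNAs of up to 600 nt, all at an end, and in 21 of the 1049 longer ones, 13 of them at an end.

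Few short lncRNAs shared sequence with other lncRNAs. A blastn search found a match to another lncRNA for 43 short lncRNAs (9.84%) and 10 of them matched over more than 50% of their length. Up to 469 lncRNAs matched a single short lncRNA and 8 matched more than 50, but none was a near copy, with at least 90% identity over at least 80% of the length. The share of values at 0 was 63.6% in the 43 with a match and 63.2% in the others. None of the 10 short lncRNAs with the most fragments had a match.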

How the data were processed

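Hypothalamus RNA of 3 pubertal and 3 prepubertal goats was compared, with samples grouped by their labels. Per the methods of the study, the authors used TopHat for alignment and Scripture and Cufflinks for transcript assembly, selected lncRNAs by coding potential, and deposited FPKM values per transcript and library, normalized for length and mapped fragments. The submitters' processing notes name Cufflinks 2.1.1 and Cuffdiff 2.1.1. The genome build is not given in the sources used here, so no coordinates are given. The deposited fold changes, p-values and q-values of the authors' own comparison were not used, except that lengths were taken from that table. All per-sample columns were used (0 left out).

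The members, gene lists and tests were chosen with earlier results of these data known. The recovery of fragments was devised after the data were seen. The logarithm of the FPKM of 1 fragment was fitted in each library as a polynomial in the logarithm of length less a constant. The degree was raised in rounds up to 8. The values used in these rounds were chosen by their closeness to whole multiples of few fragments. A value within 1% of a whole multiple, up to 10 fragments, was counted as whole. On tables simulated from the fitted curves the step returned the fragments that were put in. That check tests the code only and cannot show that the curves hold for the deposited values. Counting intervals are exact Poisson intervals at 95% on fragments summed over the goats of a stage, without scaling for depth. They leave out the spread between goats.

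Stages were compared two-sided with limma 3.58.1 (lmFit and eBayes, trend on; R 4.3.3) on log2(FPKM + 1) of lncRNAs with a mean FPKM of at least 0.1, adjusted by Benjamini-Hochberg over all 2925 tested, with a threshold of 0.05, and it was tested on simulated data. The recovered fragments cover lncRNAs of up to 600 nt from single-transcript loci and were therefore used as an alternative only. For limma they were taken before rounding and scaled to equal depth by the FPKM of 1 fragment at 600 nt. The shares at 0 of the length classes were compared within libraries by an exact sign-flip permutation test. The same test was planned for the median of values above 0 and is not given, since the value of 1 fragment depends on length. Each library is 1 goat, and p-values measure the spread between these goats. Sequences were compared with blastn 2.17.0 (E-value of at most 1e-05), and the rest was done in Python 3.11.15 with pandas 2.3.3, numpy 2.4.6, scipy 1.17.1 and matplotlib 3.10.9.

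The members named were those the study names, the 5 with the highest mean FPKM, up to 5 per direction with the smallest p among those whose stages do not overlap, up to 5 per direction above 0 in all libraries of one stage and none of the other, and the 5 above 0 in all libraries, with a mean FPKM of at least 1, with the lowest spread within a stage, plus those at the length limit. XLOC_1938248 and XLOC_1346161 fall outside this rule, and they and the sequences printed were chosen after values were seen. A withheld sequence is not reported here. Alternatives were another pseudocount, other minima, other normalizations, no trend in limma, a joint fit with the mRNA table, a replicate block, other definitions of a short lncRNA, and leaving out each library.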

Additional observations from a re-analysis of the deposited data

How the results depend on the processing

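No short lncRNA had an adjusted p under 0.05 in limma under any alternative run on all 6 libraries. Leaving out 1 library gave 0 to 7: 2 without pubertal replicate 2, 3 without pubertal replicate 3 and 7 without prepubertal replicate 1, which are 12 short lncRNAs, each with one stage at 0 throughout and at most 7 fragments. The 25 short lncRNAs with an unadjusted p under 0.05 became 4 with a minimum mean FPKM of 1 (219 tested), 67 with the lncRNA and mRNA tables fitted together, 2 with recovered fragments and 17 to 30 without 1 library, and lay between 23 and 26 in the other alternatives without a block. With the replicate number as a block there were 38, 17 higher and 21 lower, and 0 with an adjusted p under 0.05. Goats with the same number did not deviate together over the lncRNAs (correlations -0.02, 0.01 and 0.04), so the numbers were not read as pairs. The split of the 25 into higher and lower calls changed with the library left out, from 3 and 21 without prepubertal replicate 2 to 19 and 7 without pubertal replicate 3.

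The 8 short lncRNAs whose stages did not overlap became 47 with centring, 5 with a minimum mean FPKM of 1 and 9 in recovered fragments scaled to equal depth. The mean within-stage Spearman correlation of 0.151 was 0.0972 for lengths of 200 to 250 nt and 0.203 in recovered fragments, and 0.138 to 0.161 without 1 library. Without 1 library the difference in the share at 0 was 23.5 to 24.8 points from lncRNAs of up to 600 nt and 58.7 to 60.9 points from longer ones, and the difference in the median level was 0.662 to 0.690 and 0.707 to 0.749 on the log10 scale. An exact test over 5 libraries cannot go below 0.0625, and all 5 had the same sign in each measure.

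Of 338 alternative values of the 23 members named for the stage comparison, 29 had the other sign, in 8 members. With quantile normalization these were TCONS_02490845 (0.0559), TCONS_02749043 (-0.00058), TCONS_02844677 (-0.0117) and TCONS_03678242 (0.0271). With centring they were TCONS_02490845 (0.00084), TCONS_03678242 (0.0061) and TCONS_04115770 (0.026). In recovered fragments TCONS_02490845, TCONS_03678242 and TCONS_04115770 were each at 0.0242. Without 1 library the range was -0.0549 to 0.28 for TCONS_01208761, -0.68 to 0.24 for TCONS_01848143, -1.43 to 1.39 for TCONS_02490845, -0.64 to 0.65 for TCONS_02749043, -0.11 to 0.44 for TCONS_02838905, -0.34 to 0.35 for TCONS_02844677, -1.26 to 1.23 for TCONS_03678242 and -0.75 to 0.74 for TCONS_04115770. XLOC_2123676 was lower in the pubertal goats in all alternatives, with an unadjusted p from 0.00508 to 0.148, the highest without prepubertal replicate 2. The cause of these changes was not tested. Of the short lncRNAs, 62.0% rest on 3 fragments or fewer. The 28 above 0 in all libraries, with a median of 35 fragments, also gave no adjusted p under 0.05 in limma. Depth, the number of goats and a lack of stage differences cannot be told apart here, and none was tested.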
